A study of Homo sapiens with 2 samples.

Results

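E2F1 peaks on human chromosome 19 were described in LNCaP cells, an established androgen-responsive prostate cancer line. The members were chosen by position, as every peak whose deposited chromosome was 19, and the chromosome itself was picked because earlier results of these data had shown its high peak density and low shRB-only share. Those 2 values are therefore given as a description. The members numbered 2592 of the 38084 peaks in both lists: 1699 of 26431 in the RB-depleted line and 893 of 11653 in the control line.

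E2F1 chromatin immunoprecipitation and sequencing had been done on 1 library of cells with a short hairpin against the retinoblastoma protein RB (shRB) and 1 library of cells with a control hairpin (shCON). Cells of both lines spent the last 72 h in CDT, which the series calls a hormone-deficient condition and the labels list as a cell cycle arrest treatment. The same pair of E2F1 antibodies was listed for both. The labels give no number of clones or cultures behind each line, and the level of RB is not part of these data. The series asked how E2F1 binding differs once RB is lost.

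E2F1 is a transcription factor that activates S-phase and DNA replication genes, and RB binds it and represses their transcription. E2F1 is known to bind mainly at CpG-rich promoters. Chromosome 19 is known for its high gene density, for its clusters of KRAB zinc finger genes, which encode DNA-binding repressors, and for the kallikrein (KLK) cluster, which includes the androgen-regulated gene for prostate-specific antigen. In the RefSeq gene table, which is of GRCh38.p14, the chromosome held 1451 protein-coding genes, and 262 of these, or 18.1%, had symbols starting with ZNF, ZFP or ZSCAN. Of these zinc finger genes, 212 stood in 19 runs of at least 5 neighbours with no other protein-coding gene between them, and the longest run had 27. The 15 KLK genes stood in 2 runs, the longer with 10 genes. The peak positions are on hg19, so the peaks were not matched to these genes, and bands are given by position.

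The depth behind each peak is unknown, because no read counts were used. Each line had a single library, so differences between the lines have no replicate check and were not tested. Intervals are at the 95% level: Wilson for shares, exact Poisson for peak numbers, order statistics for medians and a normal interval on the log scale for ratios. They cover only the counting of peaks, and peaks near each other are not independent.

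Chromosome 19 carried more E2F1 peaks in the RB-depleted cells than in the control cells. There were 1699 shRB peaks (interval 1619 to 1782) and 893 shCON peaks (835 to 954), which is a ratio of 1.90 (1.75 to 2.06). On all other chromosomes together the ratio was 2.30 (2.25 to 2.35). Taken singly, chromosomes ran from 1.90 on chromosome 19 to 3.32 on chromosome 21, and chromosome 3, at 1.91, was close to chromosome 19. The shRB peaks covered 913 kb and the shCON peaks 355 kb, a ratio of 2.57, or 1.55% and 0.602% of the stretch between the first and the last peak. Chromosome 19 held 6.43% (6.14 to 6.73) of the shRB list and 7.66% (7.19 to 8.16) of the shCON list. It held 7 of the 100 highest-scoring shRB peaks and 10 of the 100 highest-scoring shCON peaks.

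By an overlap of 1 bp or more, nearly all control peaks on chromosome 19 were also called after RB depletion. Peaks of the 2 lists with at least 1 bp in common were called shared. Of the 893 shCON peaks 872 were shared and 21, or 2.35% (1.54 to 3.57), were shCON-only, against 9.66% of the whole shCON list and 10.3% (9.71 to 10.9) on the other chromosomes. Of the 1699 shRB peaks 848 were shared and 851, or 50.1% (47.7 to 52.5), were shRB-only, against 61.6% of the whole shRB list and 62.4% (61.8 to 63.0) on the other chromosomes. These shares moved with the overlap rule. With a reciprocal overlap of 50%, 35.1% of the chromosome 19 shCON peaks and 65.9% of the shRB peaks had no partner, beside 49.1% and 77.8% on the other chromosomes. With the same number of top peaks from each whole list, the values were 16.1% and 14.8% on chromosome 19, beside 20.4% and 24.0%. At the overlap of 1 bp and among chromosomes 1 to 22 and X, both single-list shares were lowest on chromosome 19. The gene-dense chromosomes 17 and 22 had shRB-only shares of 59.4% and 61.7%, and shCON-only shares of 5.26% and 5.37%. Merging the lists gave 1719 regions on chromosome 19, of which 847 held peaks of both lists, 851 only a shRB peak and 21 only a shCON peak. A site without a call was not called, which is not absence of binding.

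**Figure D1:**
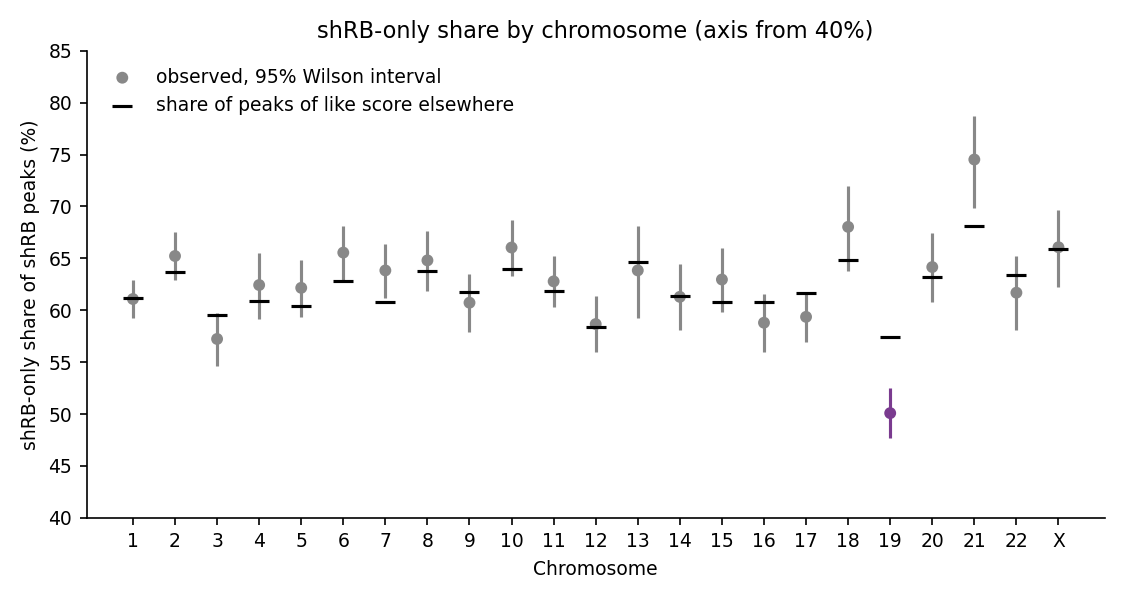
Points give the shRB-only share of shRB peaks (%, y axis, drawn from 40%) on each of 23 chromosomes (x axis), with 95% Wilson intervals, and black dashes give the share among peaks of the same score decile on the other chromosomes. Chromosome 19 (purple) has the lowest share, 50.1%, and lies below its dash at 57.4%.

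The shRB-only share on chromosome 19 was also lower than that of peaks of like score elsewhere. The score is the authors' deposited peak value, whose scale is not stated, and it was used only to rank peaks within a list. The median shRB score was 30.3 (27.7 to 32.7) on chromosome 19 and 23.7 (23.1 to 24.3) elsewhere, and the chromosome 19 value was the highest of 23 chromosomes. In shCON the medians were 13.8 (12.8 to 14.9) and 12.6 (12.4 to 12.7). When each shRB peak was given the shRB-only share of peaks in its score decile on other chromosomes, 57.4% was expected on chromosome 19, so the observed share was -7.31 percentage points from it. The same reckoning for shCON-only peaks expected 9.49%, and the observed share was -7.14 points from it. No test was made of either difference.

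By score decile the shares were as follows. They are a description and no test, since the chromosome was picked for this same share. In the seventh decile, counted from the lowest score, 71.1% (64.6 to 76.8) of 211 chromosome 19 peaks were shared, against 53.0% (51.0 to 54.9) elsewhere. In the sixth the shares were 41.3% (34.7 to 48.3) and 26.8% (25.1 to 28.6), and in the eighth 87.3% (81.7 to 91.4) and 75.8% (74.1 to 77.4). In the fourth decile they were 13.4% and 6.32%, and in the fifth 23.9% and 14.3%. They were 2.33% (0.794 to 6.61) and 1.55% (1.14 to 2.11) in the lowest decile, and 100% (98.1 to 100) and 99.6% (99.3 to 99.8) in the highest. In the second decile the order was reversed, at 1.63% (0.447 to 5.74) and 3.57% (2.91 to 4.37). The third had 8.21% and 5.02%, and the ninth 95.4% and 93.1%. None of the 194 top-decile shRB peaks of chromosome 19 was without a shCON partner. In the shCON list the distance was widest at low scores, with 92.5% (83.7 to 96.8) of the lowest decile shared on chromosome 19 and 75.2% (72.6 to 77.7) elsewhere. All shCON peaks of the upper 3 deciles on chromosome 19 were shared, 88, 103 and 103 in number.

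**Figure D2:**
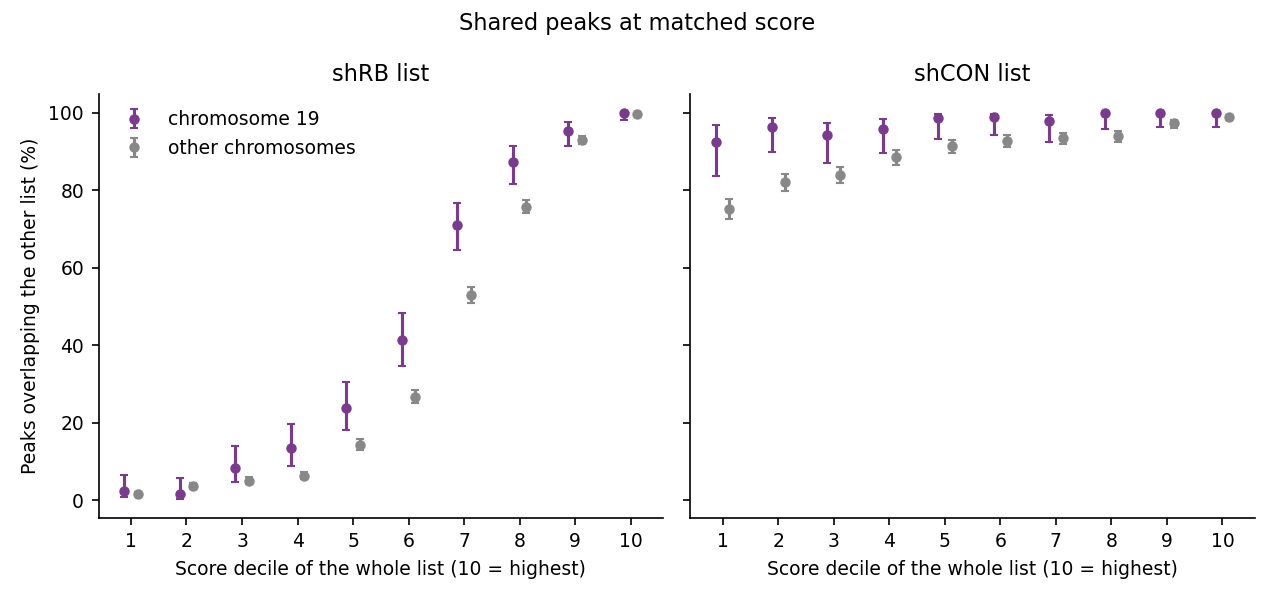
Shares of peaks that overlap the other list (%, y axis) by score decile of the whole list (x axis, 10 the highest), for chromosome 19 (purple) and the other chromosomes (grey), with 95% Wilson intervals. In the shRB list the 2 sets part most in the seventh decile, at 71.1% and 53.0%, and in the shCON list in the lowest, at 92.5% and 75.2%.

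Peaks were densest on chromosome 19 per unit of length but not per gene. Over the stretch between the first and last peak the density was 28.9 peaks per Mb in shRB and 15.2 in shCON, the highest values of 23 chromosomes in both lists. Divided by the RefSeq count of protein-coding genes, there were 1.17 shRB peaks per gene, lower than on 19 of the other 22 chromosomes, whose values ran from 0.726 on chromosome X to 1.81 on chromosome 18. The shCON value of 0.615 peaks per gene was near the middle, with rank 11 of 23. These gene counts are of GRCh38.p14 and the peaks of hg19, and only the chromosome of each gene was used.

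Along the chromosome, peaks of both lists were spread over both sides of 1 long peak-free stretch. That stretch ran from 24270434 to 27731882 (hg19), a length of 3461 kb, and the next longest, from 43111370 to 43820936, was 710 kb. Sequence of hg19 was not analysed, so it was not examined whether reads could be placed or peaks called within or beside these stretches. Before the long stretch lay 804 shRB peaks, or 33.5 per Mb, and 443 shCON peaks, or 18.4 per Mb. After it lay 895 shRB peaks, or 28.5 per Mb, and 450 shCON peaks, or 14.3 per Mb. The shRB-only shares on the 2 sides were 48.0% (44.6 to 51.5) and 52.0% (48.7 to 55.2), with intervals that overlap. The shCON-only shares were 2.26% (1.23 to 4.10) and 2.44% (1.37 to 4.32).

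In 5 Mb bands counted from the first base of the chromosome, E2F1 peaks were most numerous at the short-arm end. The first band held 249 shRB peaks, 128 of them shRB-only, and 130 shCON peaks. The second held 135 shRB peaks, 68 of them shRB-only, and 72 shCON peaks. The third held 210, with 91 shRB-only, and 127 shCON peaks. The fourth held 172, with 87 shRB-only, and 86 shCON peaks. In these 4 bands the shRB-only share ran from 43.3% (36.8 to 50.1) in the third band to 51.4% (45.2 to 57.5) in the first, and all 4 intervals overlap.

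Peaks were few in the 2 bands that hold the long peak-free stretch. The fifth band held 38 shRB peaks, 12 of them shRB-only, and 28 shCON peaks. The sixth held 13 shRB peaks, 6 of them shRB-only, and 7 shCON peaks. The seventh held 77 shRB peaks, 51 of them shRB-only, and 30 shCON peaks, and had the highest shRB-only share of the 12 bands, 66.2% (55.1 to 75.8).

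Beyond 35000001 the lowest and the highest shRB-only shares, picked after their values were seen, were those of the eighth and the tenth band. The eighth, 35000001 to 40000000, held 161 shRB peaks, 61 of them shRB-only, and 105 shCON peaks, and its shRB-only share was 37.9% (30.8 to 45.6). The tenth, 45000001 to 50000000, held 204 shRB peaks, 130 of them shRB-only, and 79 shCON peaks, a share of 63.7% (56.9 to 70.0). This difference was not tested. The ratio of shRB to shCON peak numbers was 1.53 in the eighth and 2.58 in the tenth. The ninth band held 124 shRB peaks with 70 shRB-only, the eleventh 178 with 84 and the twelfth 138 with 63, beside 55, 98 and 76 shCON peaks.

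**Figure D3:**
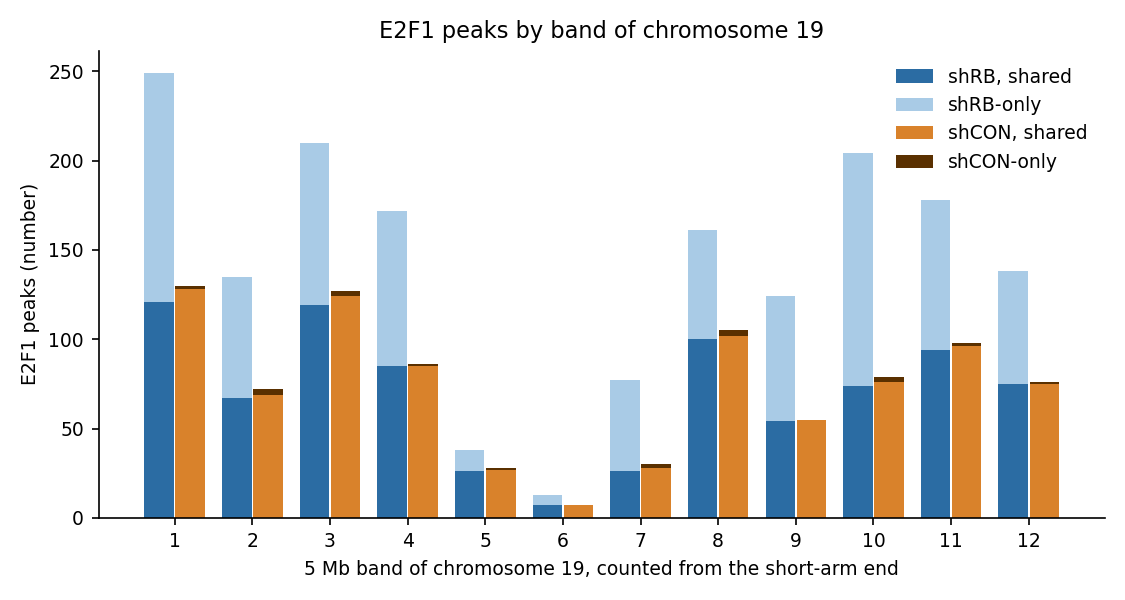
Numbers of E2F1 peaks (y axis) in the 12 bands of 5 Mb of chromosome 19 (x axis, counted from the short-arm end), split into shared and single-list peaks for shRB (blue) and shCON (orange and brown). shRB peaks outnumber shCON peaks in every band, the first band is the fullest with 249 and 130, and shCON-only peaks number at most 3 a band.

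Part of the variation between bands went with peak score. Against the shRB-only share of peaks of the same score decile on other chromosomes, the observed share was -13.5 points from the expected one in the eighth band, -10.1 in the eleventh and -9.53 in the first. The tenth was -5.43 points from its expected 69.2%, and its median score was 20.2. The seventh band, with a median score of 20.1, was 5.23 points above its expected 61.0%. What part score has in these shares was not tested. Of the 11 bands with at least 20 shRB peaks, 9 lay below the expected share. The exceptions were the seventh and the fifth, which was 1.65 points above.

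The peaks just before the long peak-free stretch were few but high in score. From 20000001 to 25000000 the median shRB score was 82.7 (44.6 to 139), against 29.5 (27.4 to 32.1) on the rest of chromosome 19. Of these 38 shRB peaks 18, or 47.4% (32.5 to 62.7), were in the top decile of the whole list, against 10.6% (9.21 to 12.2) on the rest of the chromosome. Their median width was 672 bp (600 to 701). The 28 shCON peaks there had a median score of 29.9 (19.7 to 43.7), against 13.7 (12.7 to 14.7) on the rest, and 7 were in the top decile. Of the shRB peaks 26, or 68.4% (52.5 to 80.9), were shared, and the shRB-only share of 31.6% was close to the 29.9% expected from score. Just after the stretch, in 27000001 to 28000000, the shRB peaks were not high in score. All 4 shRB and all 4 shCON peaks there were shared, and the median shRB score was 25.7. In the top decile of their list were 3 of these shCON peaks and 0 of the shRB peaks.

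At a scale of 1 Mb, 58 of the 60 windows held peaks of both lists and 2 held none. The median window had 30 shRB and 13 shCON peaks. The fullest was 1000001 to 2000000, with 74 shRB peaks, 38 of them shRB-only, and 39 shCON peaks, all shared. The next in shRB were 49000001 to 50000000, with 60 peaks, and 2000001 to 3000000, with 51, the latter tied with 18000001 to 19000000. The next in shCON were 36000001 to 37000000, with 35 peaks, and 58000001 to 59000000, with 34. The fewest shRB peaks among windows with any were 3 in 24000001 to 25000000, and 4 in each of 27000001 to 28000000 and 28000001 to 29000000. The fewest shCON peaks were 1 in 29000001 to 30000000, 1 in 43000001 to 44000000 and 2 in 28000001 to 29000000. Window counts of the 2 lists were related, with a Spearman rho of 0.85 over 58 windows of the same 2 libraries.

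In 4 windows, picked after their values were seen, most shRB peaks were also called in the control line. They were 36000001 to 37000000, with 10 shRB-only of 45 shRB peaks, 37000001 to 38000000, with 5 of 28, 53000001 to 54000000, with 6 of 31, and 58000001 to 59000000, with 10 of 44. Together 31 of 148 shRB peaks were shRB-only, or 20.9% (15.2 to 28.2), and 1 of 119 shCON peaks was shCON-only. Among the 45 windows with at least 20 shRB peaks the next lowest share was 33.3%, the median 53.6% and the highest 75%, in 30000001 to 31000000. The median shRB score in the 4 windows was 57.9 (46.4 to 65.6), against 28.1 (25.8 to 30.7) outside them. Their expected shRB-only share from score was 37.7%, so the observed share was -16.7 points from it. Outside them the observed share on chromosome 19 was 52.9% (50.4 to 55.3), -6.41 points from the expected 59.3%. The shCON scores there were close to the rest of the chromosome, with medians of 15.1 (12.9 to 19.5) and 13.7 (12.4 to 14.8).

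Across the 45 windows the shRB-only share fell as the median shRB score rose, with a Spearman rho of -0.78. Both measures come from the same shRB peaks, so this is a description of 1 library. The share was below the score-based value in 37 windows and above it in 8.

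**Figure D4:**
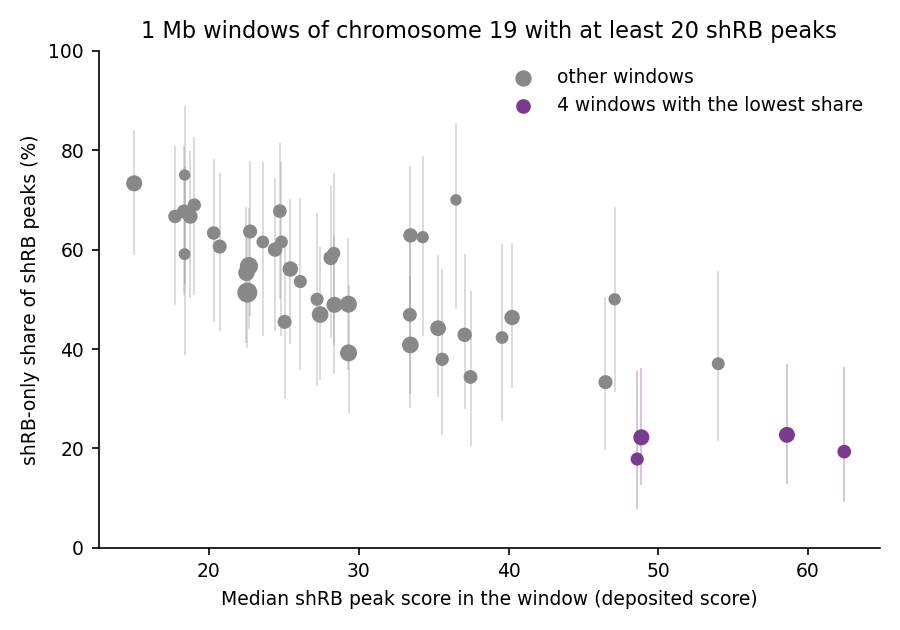
Each point is a 1 Mb window of chromosome 19 with at least 20 shRB peaks (45 windows): median deposited shRB score (x axis) and shRB-only share (%, y axis, with 95% Wilson intervals), with point area by number of peaks. The 4 windows with the lowest shares (purple) lie between 17.9% and 22.7%, and the next window is at 33.3%.

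The windows with the highest shRB-only shares of the 45 lay in other places and were also picked after their values were seen. After 30000001 to 31000000 came 45000001 to 46000000, with 33 shRB-only of 45 shRB peaks and a median shRB score of 15.0. It was followed by 34000001 to 35000000, with 14 of 20, 15000001 to 16000000, with 20 of 29, and 42000001 to 43000000, with 21 of 31. The window 43000001 to 44000000, which overlaps the second longest peak-free stretch, held 5 shRB peaks with a median score of 7.02, and 4 of them were shRB-only.

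The strongest sites were called in both lines. The highest-scoring shRB peak of the chromosome, at chr19:33462687-33463331, had a score of 333 and rank 2 in the whole shRB list. Its shCON partner, 33462772 to 33463287, had a score of 242 and rank 3 in the shCON list. The next shRB peaks lay at 49223815 to 49224429 (score 306), 51897424 to 51898038 (295), 46430935 to 46431427 (287) and 11266119 to 11266872 (284). Their shCON partners ranked 92nd, 68th, 88th and 62nd of 11653. In all 5 the shRB peak was the wider, from 493 bp against 463 bp at 46430935 to 754 bp against 514 bp at 11266119.

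The control list put a partly different set first. After the site at 33462772 came 10679593 to 10680223, with a score of 236 and rank 4, whose shRB partner ranked 67th. It was followed by 17185989 to 17186612 (score 176), 14247257 to 14248115 (174) and 11266258 to 11266771 (174). Their shRB partners ranked 61st, 318th and 60th of 26431. So 2 of the first 5 sites, at 33462687 and 11266119, were the same in both lists.

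The shRB-only peaks of chromosome 19 were low in score and narrow, as were those of the other chromosomes, and none was in the top decile. Their scores ran from 2.50 to 80.0, with a median of 13.4 (12.7 to 14.5), whereas the shared shRB peaks ran from 5.37 to 333 with a median of 61.0 (58.0 to 64.5). The median widths were 330 bp (316 to 342) and 671 bp (653 to 688). On the other chromosomes the shRB-only medians were a score of 12.6 and a width of 317 bp. The lowest 5 score deciles held 643 of the 851, or 75.6% (72.6 to 78.3), and the upper 3 held 32, or 3.76% (2.68 to 5.26). The same shares elsewhere were 76.0% (75.3 to 76.6) and 5.03% (4.69 to 5.38), and 10 of 15441 were in the top decile. The strongest was at 10138264 to 10138672, with a score of 80.0 and rank 3717, and the nearest shCON peak was 68.0 kb away. The next were at 56879355 to 56880070 (score 77.9, 24.7 kb away), 2051019 to 2051510 (77.6, 1.13 kb away), 55677488 to 55678293 (74.5, 48.2 kb away) and 23577829 to 23578476 (74.4, 121 kb away). The last of these lay among the few high-scoring peaks before the long peak-free stretch.

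The shRB-only peaks lay closer to shared peaks than on other chromosomes, where peaks are also sparser. The median distance to the nearest shared shRB peak was 20.1 kb (18.0 to 22.1) on chromosome 19 and 63.6 kb (61.8 to 65.7) on the others. Within 1 kb of a shared peak lay 75 of 851, or 8.81% (7.09 to 10.9), against 5.79% (5.43 to 6.17) elsewhere. Within 5 kb the shares were 18.4% (16.0 to 21.2) and 9.57% (9.11 to 10.0), and within 100 kb 92.9% (91.0 to 94.5) and 61.4% (60.6 to 62.2). The part of the higher density in these differences was not tested.

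Close neighbours occurred in both lists but were a small part of the gaps. Gaps on the other chromosomes are not given here. The median gap between consecutive shRB peaks was 18.3 kb (17.1 to 19.8), with quartiles of 6.72 and 37.8 kb, and in shCON 30.8 kb (28.1 to 34.4), with quartiles of 12.1 and 64.7 kb. Gaps under 1 kb numbered 163 of 1698 in shRB. In 77 of these a shared peak stood beside a shRB-only peak, in 38 both were shared and in 48 both were shRB-only. In shCON 57 of 892 gaps were under 1 kb, and in 54 of them both peaks were shared.

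The 21 shCON-only peaks were scattered and low in score. They ran from 200 to 306 bp in width and from 4.43 to 17.0 in score, and 18 lay in the lower 5 deciles of the shCON list. Low scores were not particular to chromosome 19. On the other chromosomes 75.2% of the lowest shCON decile and 99.0% of the highest were shared, so shCON-only peaks were more frequent at low scores there too. The 21 fell in 19 windows of 1 Mb, at most 2 to a window, with 10 before the long peak-free stretch and 11 after it. None lay within 1 Mb of that stretch. The highest-scoring was at 57352049 to 57352350, with a score of 17.0 and rank 4332, followed by 13126991 to 13127237 (score 16.1), 3185240 to 3185532 (12.7), 2923647 to 2923952 (11.7) and 48014415 to 48014663 (9.44). Their distances to the nearest shRB peak were 0.652, 3.86, 0.126, 20.7 and 3.42 kb. Of all 21, 7 lay under 1 kb from a shRB peak, the nearest at 0.004 kb and the farthest at 56.4 kb. These distances on the other chromosomes are not given here.

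At shared sites the shRB peak was usually wider than its partner. The one-to-one sites, where a single peak of each list overlapped, numbered 821. Their median widths were 661 bp (645 to 679) for shRB and 380 bp (367 to 391) for shCON. The shRB width exceeded the shCON width at 785, or 95.6% (94.0 to 96.8), against 95.1% of such sites in the whole lists, so this share was near the background. The median difference was 230 bp (213 to 243), against 278 bp (272 to 283) on the other chromosomes, and was the lowest of 23 chromosomes. At one-to-one sites the shRB peaks were narrower than elsewhere, where their median was 705 bp (698 to 712). The shCON peaks were wider than elsewhere, where it was 363 bp (360 to 366). Over all shRB peaks the order was the other way, with 490 bp (473 to 513) on chromosome 19 and 434 bp (427 to 439) elsewhere. Chromosomes 17 and 22 had median differences of 245 and 260 bp. These differences were not tested, and width rises with the depth of a library, which is unknown.

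The added width fell on both sides of the control peak. The shRB peak reached a median of 97 bp (91 to 110) past the shCON peak on the side of lower coordinates and 104 bp (95 to 115) on the other. The shCON peak lay wholly inside its partner at 657 sites, or 80.0% (77.2 to 82.6), and the median distance between centres was 51 bp (46 to 58). On other chromosomes 79.7% (78.9 to 80.5) lay inside and the centres were 67 bp (65 to 69) apart.

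**Figure D5:**
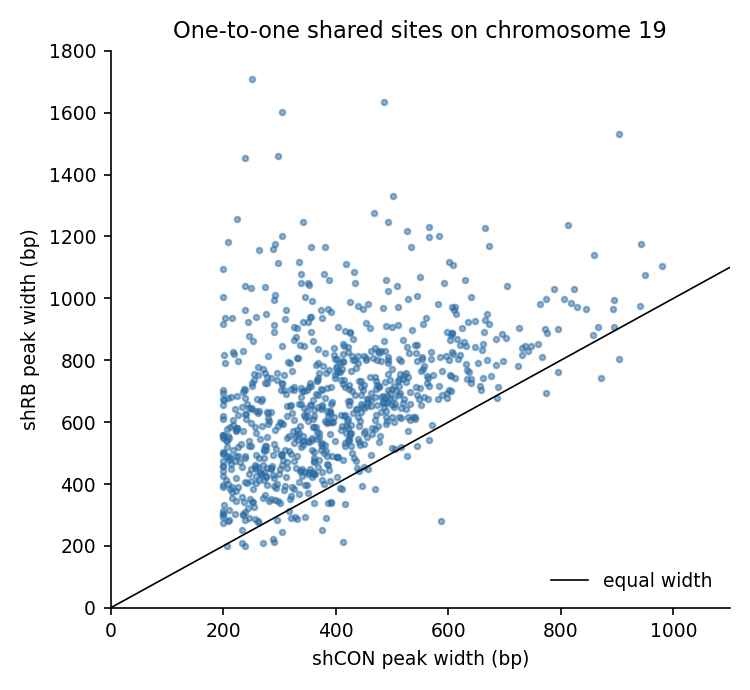
Each point is 1 of 821 one-to-one shared sites on chromosome 19: shCON peak width (bp, x axis) against shRB peak width (bp, y axis), with the line of equal width. At 785 sites the point lies above the line, and the medians are 380 and 661 bp.

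The largest width differences, picked after their values were seen, were at 2 broad shRB peaks. The peak at 49652415 to 49654122 was 1708 bp wide and met a shCON peak of 252 bp, and the peak at 35738718 to 35740319 was 1602 bp wide and met one of 304 bp. In the other direction, the shRB peak at 49954603 to 49954881 was 279 bp wide and its shCON partner 587 bp, and at 41221463 to 41221674 the widths were 212 and 412 bp.

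Another 25 shRB peaks each spanned 2 shCON peaks, and 1 shCON peak spanned more than 1 shRB peak. The 25 were 1.47% (0.999 to 2.16) of the chromosome 19 shRB peaks, near the 1.49% of the whole list. These 25 were 806 to 1469 bp wide, with a median of 1079 bp (1001 to 1257), and the gap between their 2 shCON peaks was 77 to 561 bp. They lay in 15 cases before the long peak-free stretch and in 10 after it. The highest-scoring was at 50432316 to 50433338, with a score of 163 and rank 757.

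Sites that scored high in one list tended to score high in the other. Across the 821 sites Spearman's rho of the scores was 0.74, and that of the widths 0.49, beside 0.70 and 0.38 over 8891 sites on other chromosomes. Sites are not independent replicates, so these are descriptions. Of 189 sites in the top decile of the shRB list, 88 were also in the top decile of the shCON list, and these were 88 of the 99 sites in the top decile of shCON. The shares are 46.6% and 88.9%. The shRB list is the longer, so its decile holds more peaks, and the first share could not exceed 99 of 189. The same shares on the other chromosomes are not given here.

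The largest shifts in rank, again picked after their values were seen, lay on both sides. The site at 42579773 to 42580557 stood at the 87.0th percentile of the shRB list and the 3.48th of the shCON list, and that at 15543367 to 15543862 at the 89.0th and the 12.9th. The site at 28780355 to 28780987 stood at the 8.58th percentile of the shRB list and the 57.2nd of the shCON list, and that at 27732578 to 27732871 at the 46.6th and the 91.4th. The last of these is within 1 kb of the end of the long peak-free stretch.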

How the data were processed

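The deposited data were 2 peak lists, 1 per library, with 5 columns and no header. Bowtie, MACS2 and the build hg19 appear in the submitters' processing notes, without versions or settings. Column 5 is a peak score deposited by the authors. Its scale is not given in the sources used here, nor are the calling threshold and the control library. Starts were converted from 0-based to 1-based. Peaks were placed in windows by their centre. Deciles held equal numbers of the whole list, with ties ordered by position. Expected single-list shares averaged, over the peaks of chromosome 19, the share in their score decile on all other chromosomes. Each class's 5 highest-scoring peaks and the 3 fullest and 3 emptiest windows per list were named by rule. The members and lists were chosen with earlier results of these data known. Results on promoters, zinc finger clusters, gene density, the KLK genes, listed genes and E2F motifs had been planned and were not made, because the gene table is of GRCh38 and sequence of hg19 was not analysed here. Python 3.11.15, numpy 2.4.6, pandas 2.3.3, scipy 1.17.1 and matplotlib 3.10.9 were used. Overlap and decile functions passed 10 of 10 checks, some of them with 200 planted peaks.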

Additional observations from a re-analysis of the deposited data

How the results depend on the processing

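The shares of chromosome 19 peaks with a partner, 49.9% of shRB and 97.6% of shCON peaks, moved with the way overlap was defined and with the length of the lists. They were 34.1% and 64.9% with a reciprocal overlap of 50%, and 85.2% and 83.9% when both lists were limited to the same number of top peaks, which brings the shares together by construction. They moved by less than their intervals with the other list extended by 500 bp, with the upper 50% of each list, and without the peaks up to 1 Mb from the long peak-free stretch, the last added after seeing the data. The ratio of peak numbers stayed within its interval with the upper 75% of each list and without those peaks. Taking the same part of each list leaves the ratio of the whole lists unchanged, so the first of these settings could hardly move it. With the same number of top peaks from each list, chromosome 19 held 852 shRB and 893 shCON peaks. The larger number of shRB peaks therefore holds only for the full lists and for equal parts of them. With 50 score groups the shRB-only share was -7.50 points from the expected one. By 5 Mb band, all 12 shRB-only shares stayed in their intervals with the 500 bp extension and 11 with the upper 50%, all 12 rose with the reciprocal rule, 11 of them past their interval, and all 12 fell with equal numbers. Among the 11 bands with at least 20 shRB peaks, the lowest share moved from the fifth band to the eighth with equal numbers. The sixth band, with 13 shRB peaks in the full list, then had 0%. The median widths of one-to-one sites were 626 bp in shRB and 427 bp in shCON with the reciprocal rule, which removes pairs of unequal width. No paired analysis was possible because each line had 1 library. Alternatives for promoters, zinc finger clusters, gene-rich windows and motifs could not be run. The depth behind the lists is unknown, so a missing peak does not show absence of binding.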
